A study of Mus musculus with 20 samples.

Results

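Haematopoietic stem cells (HSC) sorted for the leptin receptor on their surface (Lepr+) were compared with multipotent progenitors (MPP) sorted for it in the same way. The 5 libraries labelled Lepr+ HSC and the 5 labelled Lepr+ MPP were chosen by their labels, 10 of the 20 libraries in the series. All came from marrow of C57BL/6 mice, 7 to 9 weeks old, with 2 mice pooled into a sample and 1000 to 8000 cells collected. Both cell types lacked lineage antigens and carried Sca-1 and c-Kit, and they were parted by CD150, which HSC have and MPP lack, both being CD48-. The labels name no transgene, deletion or drug in any group. The remaining libraries are 5 of Lepr- HSC and 5 of Lepr- MPP, from the same gates without surface receptor. Below, HSC and MPP stand for the libraries labelled Lepr+ unless Lepr- is written, and values of replicates are given in the order 1 to 5.

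HSC renew themselves through life and can rebuild every blood lineage, while MPP have lost lasting self-renewal but still yield many lineages. On the way from one to the other, lymphoid and myeloid genes are known to be switched on at low levels, which is called priming, and some stem cells are known to express platelet genes. Leptin, the hormone of fat tissue, acts through its receptor on JAK2 and STAT3. In marrow the receptor is best known from stromal cells. The comparison addresses which transcripts part stem cells from progenitors when both carry it.

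HSC held more RNA of some megakaryocyte and platelet genes and of some genes for DNA replication and mitosis than MPP, and less RNA of some lymphoid and myeloid priming genes. Of 16509 genes tested with edgeR, 77 passed an adjusted p of 0.05 (0.466%), 43 of them higher (0.26%) and 34 lower (0.206%) in HSC. Levels are counts scaled to library size (CPM), and differences are log2 fold changes of HSC against MPP with the fitted SE. A mean is given ± SD over 5 libraries (n = 5). Of the 77 genes, 72 code for protein. The libraries of the 2 groups did not overlap for 72 of them, and 76 had the same sign in 5 of 5 pairs of libraries with the same replicate number. The genes were called on these same libraries, so both counts were likely to be high from the start. Over all genes tested, HSC lay wholly above MPP in 1.11% and wholly below in 1.02%. With the replicate number, which stands for a shared date, as a block 293 genes passed (1.77%; 186 higher, 1.13%, and 107 lower, 0.648%), and 76 of the 77 were among them.

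The Lepr+ libraries held 9532993 to 31589794 counts in genes. In bulk samples such as these, fewer cells of a kind and less RNA per cell cannot be told apart. MPP replicate 4, HSC replicate 5 and MPP replicate 5 were least like their groups (mean correlations of 0.815, 0.837 and 0.858), and without these 3 libraries 59 genes passed, 40 of them among the 77. The count was 28 without MPP replicate 2, 32 without HSC replicate 2 and 36 without HSC replicate 4. MPP replicates 4 and 5 also had the highest mitochondrial shares, 3.03% and 4.46% of gene counts against 0.787% to 2.28% in the other Lepr+ libraries. They had the largest shares of reads not assigned to a gene, 38.1% and 38.7% against 21.4% to 33.4%. That share includes ambiguous reads and reads not aligned uniquely. Reads in no annotated feature made up 16.7% and 17.7%, against at most 15.4% in the other Lepr+ libraries. The part of these libraries in the differences was not tested. A fit on the 10 Lepr+ libraries alone called 4 genes, Vwf, Cd34, Pbk and Fhl1. Of 42 called genes described below, 16 stayed called whichever single Lepr+ library was left out, namely Aurkb, Birc5, Cd34, Cdc45, Cdca3, Cdk1, Cebpa, Fhl1, Kcnk12, Mfsd2b, Mycn, Pbk, Pf4, Tuba8, Vldlr and Vwf.

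RNA of the receptor gene did not follow the label in every library. Lepr had 0.356, 0.514, 7.98, 0.0759 and 9.36 CPM in HSC replicates and 0.261, 27.1, 30.5, 38.8 and 19.7 CPM in MPP replicates, and 0 to 0.767 CPM in Lepr- libraries. HSC replicates 1, 2 and 4 and MPP replicate 1, although labelled Lepr+, lay within the range of the Lepr- libraries, and the other 6 lay above it. The labels describe a sort on surface protein, which these counts do not measure. The difference between HSC and MPP did not pass (-2.67 ± 1.35, adjusted p = 0.686). Stromal markers, described below, had a mean log2 CPM of 1.69, 1.451, 3.358, -0.113 and 1.139 in HSC replicates. In MPP replicates it was 2.087, 4.725, 4.445, 3.987 and 6.059. HSC replicate 3 and MPP replicates 2 to 5 lay above the 4 libraries with Lepr in the Lepr- range. HSC replicate 5 lay among those 4 libraries. The part of stromal RNA in the Lepr levels was not tested. Without these 4 libraries 2 genes passed, Cd34 and Pbk. This fit, added after seeing the data, keeps 2 HSC and 4 MPP libraries. It had 1109 genes at an unadjusted p under 0.05, where chance alone gives about 1 in 20 of the genes tested. In that fit 0 genes of each list described below passed.

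RNA of the other sorted antigens was read next. Slamf1, which encodes CD150, had 49.6, 19.6, 66.6, 37.6 and 33.4 CPM in HSC replicates and 6.26, 5.397, 8.07, 0 and 5.399 CPM in MPP replicates. Every HSC library lay above every MPP library (3.03 ± 0.81, adjusted p = 0.124, and 0.0352 with the replicate block). Cd48 had 10.5 ± 5.06 CPM in HSC against 25.6 ± 9.37 CPM in MPP, with overlapping libraries (-1.29 ± 0.39, adjusted p = 0.192). Kit, the receptor for stem cell factor (-0.31 ± 0.32, adjusted p = 0.981), and Ly6a, which encodes Sca-1 (-0.54 ± 0.32, adjusted p = 0.802), overlapped too. Of 25 measured genes of leptin and JAK-STAT signalling, 0 passed with or without the block, and their median difference was -0.23. Among them were the transducers Stat3 (-0.46 ± 0.29, adjusted p = 0.835) and Stat6 (-0.61 ± 0.3, adjusted p = 0.67).

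Promoters are printed for 3 called cell cycle genes and 2 called platelet genes, since the factors known to act on such genes read short DNA words. Each printed promoter holds such a word, which not all promoters of the called genes do, so those printed are not typical. Each run holds the 250 bases before the RefSeq start of the gene on GRCm38.p6, 5′ to 3′ on the strand of the gene, which are chr10:69352913-69353162 on the minus strand for Cdk1, chr2:172370571-172370820 on the minus strand for Aurka, chr12:24708004-24708253 on the plus strand for Rrm2, chr16:30310782-30311031 on the minus strand for Gp5 and chr13:95696670-95696919 on the plus strand for F2rl2. In the cell cycle genes capitals mark the NF-Y word CCAAT, the cell cycle homology word TTTGAA, and the E2F words (TTCCCGC or TTCGCGC or TTGCCGC or TTGGCGC). In the platelet genes capitals mark GATA words (AGATAA or AGATAG or TGATAA or TGATAG). Both strands were searched, and capitals that touch belong to matches that overlap or adjoin.
Cdk1: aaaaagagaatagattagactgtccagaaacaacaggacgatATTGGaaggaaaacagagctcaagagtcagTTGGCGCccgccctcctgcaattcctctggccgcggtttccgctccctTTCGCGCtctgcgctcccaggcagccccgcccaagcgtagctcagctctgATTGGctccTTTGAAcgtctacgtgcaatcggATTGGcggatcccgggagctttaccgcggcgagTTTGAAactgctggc
Aurka: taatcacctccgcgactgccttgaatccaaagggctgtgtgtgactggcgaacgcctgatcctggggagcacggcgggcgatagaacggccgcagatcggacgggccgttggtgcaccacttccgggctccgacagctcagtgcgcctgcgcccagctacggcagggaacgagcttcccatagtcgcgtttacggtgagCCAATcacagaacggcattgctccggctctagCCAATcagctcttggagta
Rrm2: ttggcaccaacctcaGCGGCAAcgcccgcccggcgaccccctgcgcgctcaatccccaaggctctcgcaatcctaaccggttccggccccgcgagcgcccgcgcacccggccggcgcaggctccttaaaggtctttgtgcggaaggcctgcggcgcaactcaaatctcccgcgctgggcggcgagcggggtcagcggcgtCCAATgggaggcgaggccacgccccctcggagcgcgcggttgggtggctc
Gp5: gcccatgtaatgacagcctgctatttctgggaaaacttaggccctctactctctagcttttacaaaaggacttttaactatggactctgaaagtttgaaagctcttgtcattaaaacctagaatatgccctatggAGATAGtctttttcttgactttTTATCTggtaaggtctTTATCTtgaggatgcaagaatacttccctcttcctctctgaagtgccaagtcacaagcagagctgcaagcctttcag
F2rl2: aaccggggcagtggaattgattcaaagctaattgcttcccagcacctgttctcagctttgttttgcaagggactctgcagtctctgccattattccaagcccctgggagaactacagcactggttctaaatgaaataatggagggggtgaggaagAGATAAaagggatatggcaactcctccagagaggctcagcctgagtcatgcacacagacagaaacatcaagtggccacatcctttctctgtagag
A RefSeq promoter was found for 11 of the 13 called genes of replication and mitosis. CCAAT stood in 6 of them, an E2F word in 2 and TTTGAA in 2, against 33.8%, 7.89% and 16% of all 32851 promoters. Of the 6 called platelet and erythroid genes 5 had a promoter in RefSeq, and 2 of these held a GATA word, against 26.5% of all promoters. A match is a word in this window and not a measured binding site.

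Platelet genes were among the largest rises. Pf4, platelet factor 4, a chemokine of platelet granules, had 155, 583, 411, 457 and 731 CPM in HSC replicates and 12.7, 16.9, 17.5, 30.9 and 73.5 CPM in MPP replicates. The groups lay far apart (3.96 ± 0.63, adjusted p = 0.00651). Vwf, the von Willebrand factor that ties platelets to injured vessels, had 155, 353, 431, 271 and 191 CPM in HSC replicates and 17.6, 24.3, 15.8, 23.7 and 20.02 CPM in MPP replicates, again without overlap (3.79 ± 0.52, adjusted p = 0.00186). It stayed called in the fit on Lepr+ libraries alone (adjusted p = 0.001). On GRCm38 the genes are Pf4 (ENSMUSG00000029373.7; chromosome 5, 90772435 to 90773383, plus strand) and Vwf (ENSMUSG00000001930.17; chromosome 6, 125546774 to 125686679, plus strand).

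Of 23 measured megakaryocyte and platelet genes 5 were higher (21.7%, beside 0.26% of all genes tested), 0 lower and 18 did not pass. The median difference was 1.48, beside -0.02 over all genes tested, and it ranged from 0.89 to 2.23 over the 5 pairs. The third called member was Gp5, a subunit of the platelet receptor for von Willebrand factor, with 38.2, 182, 113, 209.8 and 184 CPM in HSC replicates and 19.1, 38.8, 15.8, 50.4 and 18.4 CPM in MPP replicates (2.35 ± 0.47, adjusted p = 0.0235). HSC replicate 1 was the one HSC library within the MPP range. F2rl2, a thrombin receptor partner on mouse platelets, ran between 9.38 and 54.1 CPM over HSC and between 0.3296 and 9.67 CPM over MPP libraries (2.97 ± 0.59, adjusted p = 0.0235). HSC replicate 1 lay within the MPP range for F2rl2 as well. Tubb1, the tubulin of the platelet rim, had 4.39, 5.65, 57.6, 43.3 and 110.3 CPM in HSC replicates and 1.01, 1.199, 2.39, 0 and 0 CPM in MPP replicates (5.49 ± 1.11, adjusted p = 0.0256), so its HSC libraries spread widely. Leaving out single libraries ended the call of Gp5 in 7, of F2rl2 in 5 and of Tubb1 in 5 of 10 fits.

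With the replicate block 13 of the 23 platelet genes were higher (56.5%, beside 1.13% of all genes tested) and 0 lower. Among those called with the block alone, named after their values were seen, were Itga2b, the integrin chain CD41 (1.64 ± 0.37, adjusted p = 0.0551, and 0.00374 with the replicate block), Cavin2, a protein of caveolae (3.26 ± 0.74, adjusted p = 0.0569, and 0.0156 with the replicate block), and Gp9, which joins Gp5 in the same receptor (1.47 ± 0.34, adjusted p = 0.063, and 0.00181 with the replicate block). Without the 3 libraries that stood apart 5 genes of the list were higher. On the Lepr+ libraries alone 1 was, and 1 with the mean level of stromal and endothelial markers as a covariate. Leaving out 1 library moved the count by over 1.5 times to 8 without HSC replicate 1, 3 without HSC replicate 2, 3 without HSC replicate 3, 2 without HSC replicate 4, 3 without HSC replicate 5, 3 without MPP replicate 1, 2 without MPP replicate 2 and 3 without MPP replicate 3. The summed level of the list ran between 3242 and 6317 CPM over HSC and between 2343 and 2891 CPM over MPP libraries. Blood vessels make Vwf as well. The summed endothelial markers, a sum that includes Vwf itself, ran between 1129 and 1667 CPM over HSC and between 892 and 1595 CPM over MPP libraries. The part of vessel RNA in the Vwf levels was not tested. Vwf was the 1 of 21 measured endothelial markers that passed (4.76%, beside 0.26% of all genes tested), and the median of that list was -1.22.

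**Figure D1:**
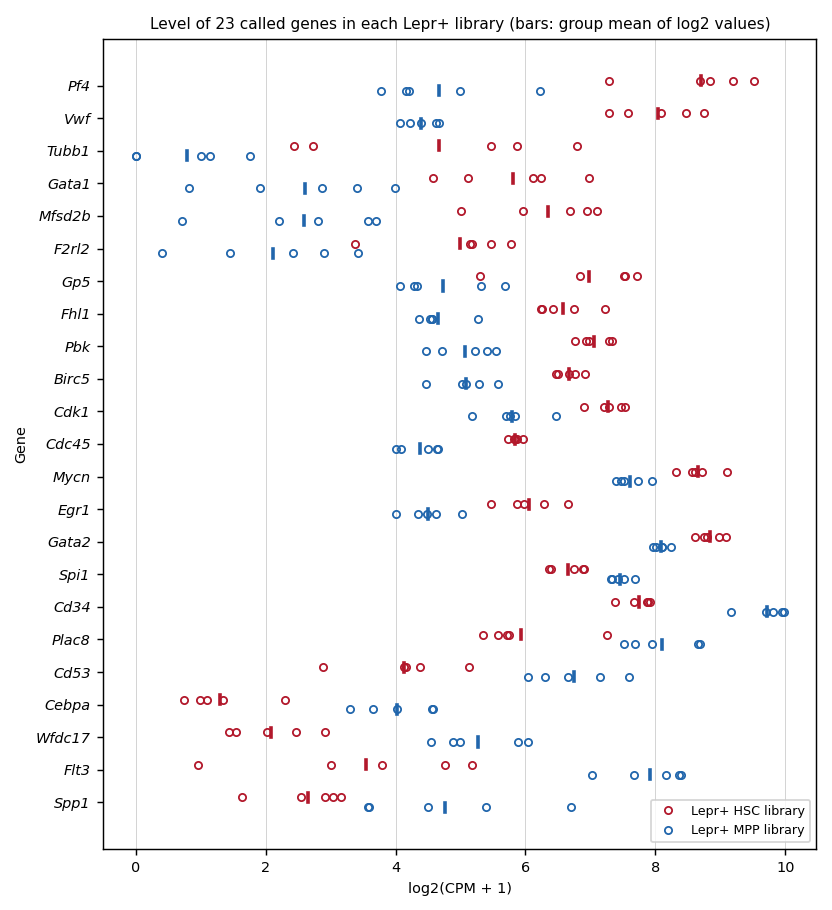
Levels of called genes in each Lepr+ library, as log2(CPM + 1) on the x axis, with HSC in red, MPP in blue, circles for libraries and bars for the group means of these log2 values. Pf4 and Vwf are higher in every HSC library, Cd34 is lower in every HSC library, and the HSC libraries of Tubb1 and Flt3 spread widely.

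Gata1, which drives red cell and megakaryocyte fate, had 22.8, 125, 74.6, 33.5 and 68.3 CPM in HSC replicates and 6.33, 2.77, 9.63, 0.769 and 14.8 CPM in MPP replicates. It was higher in each HSC library than in any MPP library (3.25 ± 0.63, adjusted p = 0.0217), and the call ended without HSC replicate 2, MPP replicate 1 or MPP replicate 2 (adjusted p up to 0.0793). It was the 1 of 21 measured erythroid genes that passed (4.76%, beside 0.26% of all genes tested), and the median of the list was 0.21, with pairs from -0.53 to 1.73. The erythropoietin receptor Epor (1.13 ± 0.63, adjusted p = 0.763), the water channel Aqp1 (0.98 ± 0.59, adjusted p = 0.806) and Hemgn, a nuclear protein of blood precursors (0.55 ± 0.22, adjusted p = 0.483), did not pass. Mfsd2b, which exports sphingosine-1-phosphate from red cells and platelets, had 31.3, 136, 123, 102 and 61.6 CPM in HSC replicates and 3.59, 0.637, 5.99, 10.9 and 11.9 CPM in MPP replicates (3.81 ± 0.62, adjusted p = 0.00759). Tuba8, an alpha-tubulin, ran between 23.9 and 162 CPM over HSC and between 5.06 and 17.2 CPM over MPP libraries (2.89 ± 0.48, adjusted p = 0.00907).

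Genes that copy DNA were higher in HSC where they passed. Of 45 measured genes of S phase 6 were higher (13.3%, beside 0.26% of all genes tested), 0 lower and 39 did not pass. The median was 0.67, with pairs from 0.37 to 1.05. Cdc45, part of the helicase at replication forks, had 55.6, 61.3, 57.3, 55.9 and 51.9 CPM in HSC replicates and 23.8, 15.1, 21.5, 24.1 and 15.97 CPM in MPP replicates. Both groups were tight and did not overlap (1.49 ± 0.21, adjusted p = 0.00186). Tyms, thymidylate synthase, ran between 153 and 261 CPM over HSC and between 61.2 and 121 CPM over MPP libraries (1.21 ± 0.23, adjusted p = 0.0176). The clamp loader subunit Rfc5 (0.78 ± 0.16, adjusted p = 0.0265), Rrm2 of ribonucleotide reductase (1.23 ± 0.25, adjusted p = 0.0294), the thymidine kinase Tk1 (1.28 ± 0.28, adjusted p = 0.047) and the helicase subunit Gins2 (1.23 ± 0.27, adjusted p = 0.048) completed the 6, each without overlap.

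Tyms lost its call without HSC replicate 2, MPP replicate 2 or MPP replicate 3, and Rfc5, Rrm2, Tk1 and Gins2 lost theirs in 6, 7, 8 and 8 of 10 fits without 1 library. With the block 14 S phase genes were higher (31.1%, beside 1.13% of all genes tested) and 0 lower. The count was 4 without the 3 libraries that stood apart, 0 on the Lepr+ libraries alone and 0 with the stromal and endothelial covariate. Leaving out 1 library moved it by over 1.5 times to 1 without HSC replicate 2, 2 without HSC replicate 4, 3 without HSC replicate 5, 3 without MPP replicate 1, 1 without MPP replicate 2 and 1 without MPP replicate 3. The summed S phase level ran between 5534 and 8072 CPM over HSC and between 3671 and 5036 CPM over MPP libraries.

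The mitotic genes that passed were higher in HSC as well. Of 44 measured members 7 were higher (15.9%, beside 0.26% of all genes tested), 0 lower and 37 did not pass. The median was 0.87, with pairs from 0.02 to 1.77. Cdk1, the kinase that starts mitosis, had 118, 156, 147, 176 and 184 CPM in HSC replicates and 53.4, 35.2, 50.96, 56.4 and 87.4 CPM in MPP replicates (1.46 ± 0.25, adjusted p = 0.0114). The groups did not overlap. Birc5, or survivin, of the chromosomal passenger complex, had 101, 120.2, 87.9, 108 and 89.7 CPM in HSC replicates and 31.4, 21.03, 32.8, 37.9 and 46.9 CPM in MPP replicates (1.58 ± 0.24, adjusted p = 0.00496). Aurkb, the kinase of that complex, ran between 77.1 and 116 CPM over HSC and between 24.5 and 61.2 CPM over MPP libraries (1.48 ± 0.22, adjusted p = 0.00496). Both were higher in every HSC library than in any MPP library. Cdca3, which promotes entry into mitosis (1.39 ± 0.23, adjusted p = 0.00907), Mad2l1 of the spindle checkpoint (1.32 ± 0.24, adjusted p = 0.0134), and the mitotic kinases Plk1 (1.68 ± 0.32, adjusted p = 0.0176) and Aurka (1.35 ± 0.29, adjusted p = 0.0351) were called as well, and of these 4 only Aurka had overlapping libraries.

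Mad2l1 lost its call without MPP replicate 2, Plk1 without HSC replicate 2, MPP replicate 1 or MPP replicate 2, and Aurka in 7 of 10 fits without 1 library. With the block 12 mitotic genes were higher (27.3%, beside 1.13% of all genes tested) and 0 lower. Without the 3 libraries that stood apart 8 were higher. The count was 0 on the Lepr+ libraries alone and 0 with the stromal and endothelial covariate. Leaving out 1 library moved it by over 1.5 times only to 4 without MPP replicate 2. Pbk, a mitotic kinase outside the list, had 108, 121, 125, 155 and 159.7 CPM in HSC replicates and 41.4, 21.1, 36.1, 25.4 and 45.6 CPM in MPP replicates (1.98 ± 0.22, adjusted p = 0.000189). Its groups did not overlap. Mki67, the usual marker of dividing cells, had 97.8, 7.71, 142, 11.5 and 1.47 CPM in HSC replicates and 37.6, 29.2, 48.1, 6.37 and 30.7 CPM in MPP replicates and did not pass (0.78 ± 0.95, adjusted p = 0.994). Its HSC libraries spanned the whole MPP range. The summed mitotic level ran between 2023 and 4481 CPM over HSC and between 1345 and 2099 CPM over MPP libraries, and HSC replicate 5, with 2023 CPM, lay below MPP replicate 3.

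**Figure D2:**
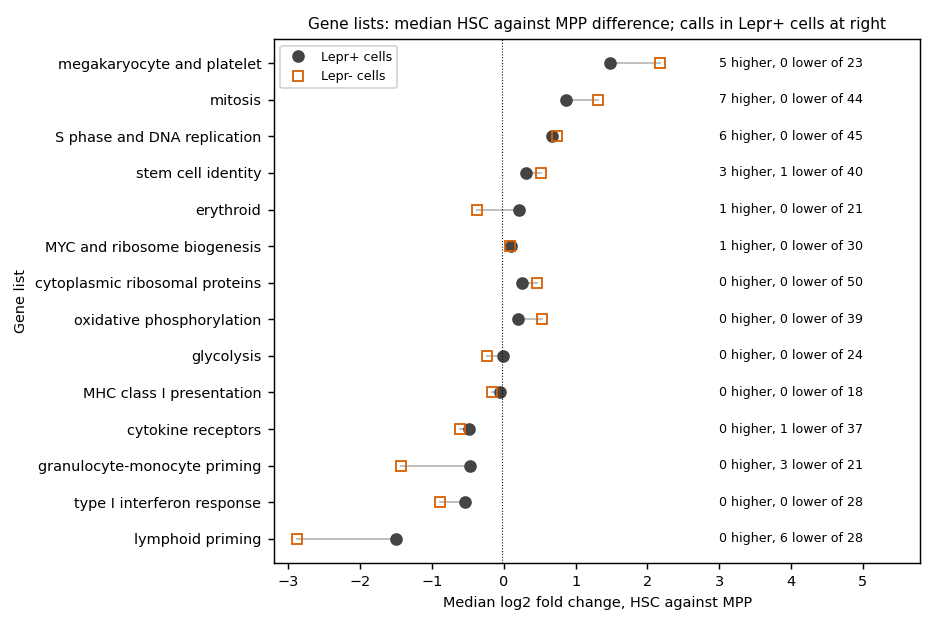
Median log2 fold change of HSC against MPP over the measured genes of each list, with filled circles for Lepr+ and open squares for Lepr- cells, the median of all genes in Lepr+ cells as a dotted line and the called members counted at the right. The platelet list stands at 1.48 and the lymphoid priming list at -1.51 in Lepr+ cells.

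Few genes of growth and metabolism were called. Of 30 genes of MYC and ribosome biogenesis 1 was higher (3.33%, beside 0.26% of all genes tested), the transcription factor Mycn, with 317, 418, 390.0, 546 and 377 CPM in HSC replicates and 182, 167, 211, 245 and 176 CPM in MPP replicates (1.06 ± 0.17, adjusted p = 0.00708). Its groups did not overlap, while its relative Myc did not pass (-0.32 ± 0.18, adjusted p = 0.753). In edgeR without the block 0 of 17 G1 cyclins and CDK inhibitors, of 50 cytoplasmic ribosomal proteins, of 39 genes of oxidative phosphorylation and of 24 of glycolysis passed, with medians of 0.3, 0.25, 0.2 and -0.01. With the block the cyclin Ccnd3 (0.45 ± 0.15, adjusted p = 0.29, and 0.0368 with the replicate block), cytochrome c, Cycs (0.46 ± 0.26, adjusted p = 0.758, and 0.0407 with the replicate block), the lactate dehydrogenase Ldha (0.77 ± 0.27, adjusted p = 0.322, and 0.00263 with the replicate block) and Odc1, an enzyme of polyamine synthesis (0.6 ± 0.24, adjusted p = 0.443, and 0.00787 with the replicate block), were higher. Egr1, an immediate early factor known to keep stem cells at rest, was the 1 of 16 genes of its list that passed (6.25%, beside 0.26% of all genes tested). It ran between 43.4 and 99.3 CPM over HSC and between 15.03 and 31.61 CPM over MPP libraries without overlap (1.62 ± 0.34, adjusted p = 0.0341), and lost its call in 8 of 10 fits without 1 library.

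Few stem cell genes passed. Of 40 measured members 3 were higher (7.5%, beside 0.26% of all genes tested) and 1 was lower (2.5%, beside 0.206%) in HSC. The median was 0.3, with pairs from 0.3 to 0.57. Of the members 33 had a difference above 0 (82.5%), beside 48.4% of all genes tested. Besides Vwf, the higher ones were Gata2, a factor that maintains stem cells, with 388, 445, 429, 503 and 541 CPM in HSC replicates and 275, 257, 300.3, 274 and 249 CPM in MPP replicates (0.77 ± 0.15, adjusted p = 0.022), and Ctnnal1, a relative of alpha-catenin used as a stem cell marker, which ran between 40.7 and 80.5 CPM over HSC and between 1.54 and 20.3 CPM over MPP libraries (2.29 ± 0.5, adjusted p = 0.0446). Neither overlapped between groups, and they lost their calls in 6 and 8 of 10 fits without 1 library. Vldlr, a lipoprotein receptor, was the lower one and ran between 7.04 and 20.8 CPM over HSC and between 35.9 and 94.6 CPM over MPP libraries (-2.3 ± 0.41, adjusted p = 0.0134). With the block 7 were higher (17.5%, beside 1.13% of all genes tested) and 2 lower (5%, beside 0.648%). In the fit without the block, leaving out 1 library moved the higher count by over 1.5 times to 1 without HSC replicate 2, 1 without HSC replicate 4, 1 without HSC replicate 5, 1 without MPP replicate 2 and 1 without MPP replicate 5.

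Hlf, a factor that restrains differentiation of stem cells, had 353, 291, 274, 319.6 and 389.5 CPM in HSC replicates and 548, 465, 487, 479.98 and 541 CPM in MPP replicates. Every HSC library lay below every MPP library, and the gene was called lower with the block (-0.63 ± 0.17, adjusted p = 0.114, and 0.00374 with the replicate block). Mllt3, which supports stem cell renewal (0.99 ± 0.31, adjusted p = 0.222, and 0.016 with the replicate block), and Pdzk1ip1 (0.73 ± 0.32, adjusted p = 0.559, and 0.00713 with the replicate block) were called higher with the block, both named after their values were seen. Procr, the receptor for protein C and a marker of long-lived stem cells, had 99.2 ± 27.3 CPM in HSC against 93.9 ± 21.7 CPM in MPP (0.08 ± 0.25, adjusted p = 0.997), and the stem cell factor Mecom 122 ± 47.9 CPM in HSC against 107 ± 46.96 CPM in MPP (0.18 ± 0.45, adjusted p = 0.997). Both overlapped between the groups. Fhl1, a LIM-domain protein outside the list, had 75.6, 84.5, 74.5, 106 and 149 CPM in HSC replicates and 22.6, 19.6, 22.1, 22.6 and 37.6 CPM in MPP replicates (1.98 ± 0.26, adjusted p = 0.00142) and did not overlap.

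Cd34, an adhesion molecule that resting adult mouse stem cells lack on their surface and progenitors carry, gave the smallest adjusted p. It had 236, 232, 239.7, 203 and 166 CPM in HSC replicates and 829, 985, 896, 1009 and 573 CPM in MPP replicates. The lowest MPP library lay above the highest HSC library (-1.99 ± 0.18, adjusted p = 6.64e-06), and the gene stayed called on the Lepr+ libraries alone (adjusted p = 0.00756). Flt3, the receptor that marks lymphoid-primed progenitors, had 35.3, 12.9, 25.998, 7.06 and 0.946 CPM in HSC replicates and 328, 285, 334, 129.5 and 204 CPM in MPP replicates, likewise without overlap (-3.95 ± 0.72, adjusted p = 0.0149). Its call ended without HSC replicate 2 or HSC replicate 4 (adjusted p up to 0.0594). On GRCm38 the genes are Cd34 (ENSMUSG00000016494.9; chromosome 1, 194938819 to 194961279, plus strand) and Flt3 (ENSMUSG00000042817.15; chromosome 5, 147330741 to 147400489, minus strand).

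Of 28 measured lymphoid priming genes 6 were lower in HSC (21.4%, beside 0.206% of all genes tested), 0 higher and 22 did not pass. The median was -1.51, with pairs from -2.04 to -0.53. Cd53, a tetraspanin of white cells, had 16.5, 16.8, 6.35, 19.8 and 34.1 CPM in HSC replicates and 77.9, 100.2, 64.5, 193 and 140.3 CPM in MPP replicates (-2.63 ± 0.48, adjusted p = 0.0146). HSC and MPP did not overlap. Cd52, a surface glycoprotein of lymphocytes, had 7.597, 5.81, 7.02, 3.72 and 9.99 CPM in HSC replicates and 20.3, 37.1, 16.9, 264 and 39.9 CPM in MPP replicates (-3.47 ± 0.68, adjusted p = 0.022), with MPP replicate 4 far above the rest. Cd27, a TNF receptor family member (-1.01 ± 0.21, adjusted p = 0.027), Wfdc17 (-3.53 ± 0.76, adjusted p = 0.0394) and Flt3 were also among the 6.

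Cd53 lost its call without HSC replicate 2, Cd52 without HSC replicate 2, HSC replicate 3 or HSC replicate 4, and Cd27 and Wfdc17 in 7 and 9 of 10 fits without 1 library. The count of lower lymphoid genes was 3 without the 3 libraries that stood apart and 9 with the block (32.1%, beside 0.648% of all genes tested). It was 0 on the Lepr+ libraries alone and 0 with the stromal and endothelial covariate. Leaving out 1 library moved it by over 1.5 times to 1 without HSC replicate 2, 3 without HSC replicate 3 and 3 without HSC replicate 4. Dntt, the terminal transferase of early lymphocytes, had 2.73, 0, 0.05803, 0 and 0.315 CPM in HSC replicates and 8.68, 20.8, 9.75, 7.91 and 7.09 CPM in MPP replicates (-4.03 ± 1.05, adjusted p = 0.113, and 0.0177 with the replicate block), and Notch1, which directs T cell fate, ran between 8.195 and 35.4 CPM over HSC and between 39.99 and 68.6 CPM over MPP libraries (-1.4 ± 0.4, adjusted p = 0.163, and 0.023 with the replicate block), the latter named after its values were seen.

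Markers of B and plasma cells were uneven. Their summed level was 3467 CPM in MPP replicate 2 and 5332 CPM in MPP replicate 4, 361, 1137 and 484 CPM in MPP replicates 1, 3 and 5, and 320.2 to 1012 CPM in HSC. The summed lymphoid level, which ran between 1025 and 1481 CPM over HSC and between 1856 and 3996 CPM over MPP libraries, was highest in MPP replicate 2, and Cd53 and Cd52 were highest in MPP replicate 4. In edgeR 11 measured B and plasma cell markers gave 0 calls without the block, with a median of -2.26. Of these 1 had a difference above 0. Ighm, the heavy chain of IgM, had 11280 counts over HSC and 66548 over MPP libraries, 78.9% of the latter in MPP replicate 2, and Jchain, which joins antibody units, 5163 and 19229. Ebf1, an early B cell factor, had 118 and 570 counts, and Pax5, which fixes B cell fate, 2 and 0. The part of such RNA in the lymphoid differences was not tested.

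Of 21 measured granulocyte and monocyte priming genes 3 were lower in HSC (14.3%, beside 0.206% of all genes tested) and 0 higher. The median was -0.47, with pairs from -1.8 to -0.15. Cebpa, the factor that starts granulocyte fate, had 0.989, 0.668, 1.54, 1.14 and 3.89 CPM in HSC replicates and 15.2, 22.9, 11.6, 22.5 and 8.89 CPM in MPP replicates (-3.32 ± 0.54, adjusted p = 0.00783). Plac8, a small protein of myeloid and lymphoid progenitors, had 52.8, 51.5, 39.6, 46.97 and 152 CPM in HSC replicates and 205, 247, 181, 404 and 409.7 CPM in MPP replicates (-2.08 ± 0.39, adjusted p = 0.017). Neither overlapped, and HSC replicate 5 was the highest HSC library for both. Spi1, which encodes PU.1, had 101 ± 18.1 CPM in HSC against 175 ± 18.7 CPM in MPP (-0.79 ± 0.17, adjusted p = 0.0385). Plac8 lost its call without HSC replicate 2 or HSC replicate 4, and Spi1 in 9 of 10 fits without 1 library. Leaving out 1 library moved the count by over 1.5 times to 1 without HSC replicate 2 and 1 without HSC replicate 4. It was 0 on the Lepr+ libraries alone and 0 with the stromal and endothelial covariate. The summed level of the list was 1709 CPM in HSC replicate 5, 491 to 729 CPM in the other HSC libraries and 1052 to 1546 CPM in MPP. Mpo, the granule enzyme myeloperoxidase, had 16.1, 5.703, 112, 25.3 and 229 CPM in HSC replicates and 29.3, 56.6, 40.2, 58.2 and 77.6 CPM in MPP replicates and did not pass (0.57 ± 0.91, adjusted p = 0.997).

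**Figure D3:**
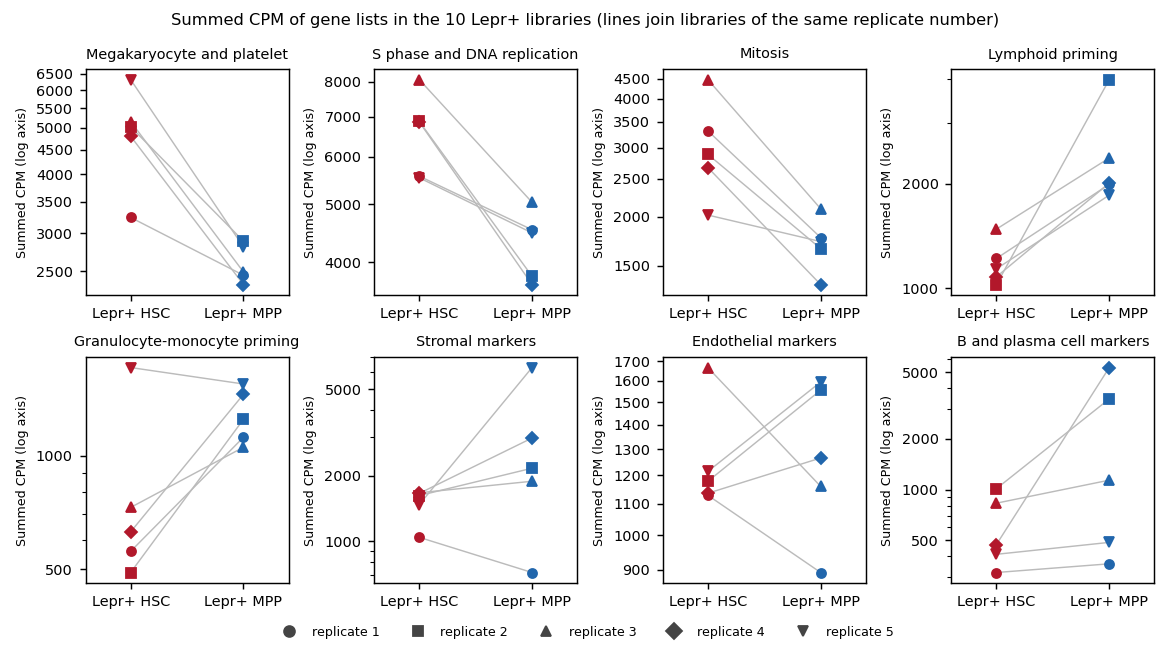
Summed CPM of 8 gene lists in the Lepr+ libraries, on log axes that differ between panels, with HSC at the left in red, MPP at the right in blue, 1 shape for each replicate number and lines between libraries of the same number. Platelet, S phase and lymphoid priming sums do not overlap between HSC and MPP, and the stromal and B cell sums spread most among MPP.

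Immune signalling gave few calls. Of 37 cytokine receptors 1 was lower (2.7%, beside 0.206% of all genes tested), Flt3, and the median of the list was -0.48. The block added Il1r1, the interleukin-1 receptor, as lower (-1.67 ± 0.4, adjusted p = 0.0746, and 0.0146 with the replicate block) and Tgfbr3, a co-receptor for TGF-beta, as higher (1.09 ± 0.29, adjusted p = 0.13, and 0.00653 with the replicate block). Of 26 measured homing and adhesion genes 1 was lower without the block (3.85%, beside 0.206% of all genes tested). With the block 2 were lower (7.69%, beside 0.648%), and Selplg, a selectin ligand, was called only with it (-0.81 ± 0.22, adjusted p = 0.127, and 0.00908 with the replicate block). In edgeR without the block 0 of 28 type I interferon genes, of 28 interferon gamma genes and of 18 genes of MHC class I presentation passed, with medians of -0.54, -0.26 and -0.06. With it Rtp4, an interferon-induced gene (-0.65 ± 0.3, adjusted p = 0.614, and 0.0485 with the replicate block), and the peptide transporter Tap2 (-0.8 ± 0.19, adjusted p = 0.0766, and 0.00457 with the replicate block) were lower.

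H2-Ob, which modulates loading of class II molecules, was the 1 of 12 class II genes that passed (8.33%, beside 0.206% of all genes tested). It had 11.4, 36.1, 19.3, 6.602 and 17.98 CPM in HSC replicates and 76.4, 61.1, 52.5, 72.3 and 30.9 CPM in MPP replicates (-1.68 ± 0.36, adjusted p = 0.036), and HSC replicate 2 lay above MPP replicate 5. The call ended in 8 of 10 fits without 1 library, and the block added H2-DMa of the same pathway as lower (-0.72 ± 0.29, adjusted p = 0.477, and 0.0133 with the replicate block). Of 17 imprinted growth regulators and 15 Hox genes 0 passed in edgeR with or without the block, with medians of 0.27 and 0.34.

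Among the other large differences, the myeloid chemokine Ccl9 (-3.43 ± 0.76, adjusted p = 0.047) and the potassium channel subunit Kcnk12 (-2.18 ± 0.4, adjusted p = 0.0164) were lower in HSC and Mdm1, a centriole protein (2.1 ± 0.43, adjusted p = 0.027), was higher. Ccl9 lost its call whichever of the 10 Lepr+ libraries was left out, and Mdm1 in 6 of 10 cases. Spp1, osteopontin, had 7.16, 6.52, 4.82, 7.89 and 2.103 CPM in HSC replicates and 10.9, 11.1, 21.7, 40.98 and 103 CPM in MPP replicates (-2.72 ± 0.59, adjusted p = 0.0446, and 0.0654 with the replicate block), with its highest level in MPP replicate 5. Stromal markers summed to 719, 2167, 1888, 2982 and 6285 CPM in MPP replicates and 1043 to 1671 CPM in HSC, and were likewise highest in MPP replicate 5. Without the 3 libraries that stood apart, which include that one, the adjusted p of Spp1 was 0.506. The part of stromal RNA in its difference was not tested.

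In edgeR 0 of 22 measured stromal markers passed without the block, and their median was -2.98. The collagen gene Col1a1 ran between 0.0759 and 43.5 CPM over HSC and between 14.6 and 1829.5 CPM over MPP libraries (-4.4 ± 1.88, adjusted p = 0.542). Apoe, which encodes apolipoprotein E and stands in the same list, was higher with the block (1.01 ± 0.26, adjusted p = 0.101, and 0.00273 with the replicate block). With the block 1 stromal marker was higher (4.55%, beside 1.13% of all genes tested) and 1 lower (4.55%, beside 0.648%). With the mean level of the stromal and endothelial lists, which hold Vwf, as a covariate, 2 genes were called over the comparison, Vwf and Cd34. Among markers of other cells, 0 of 6 for neutrophils, of 14 for monocytes and macrophages and of 8 for T and NK cells passed in edgeR, with or without the block.

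Single HSC libraries held most of the HSC RNA of some granulocyte genes. The basophil proteases Prss34 and Mcpt8 had 5423 and 1709 counts over HSC against 219 and 118 over MPP, with 99.9% and 98% of the HSC counts in HSC replicate 1. The neutrophil genes S100a9 and Ngp had 2702 and 2636 counts over HSC against 133 and 108 over MPP, with 96.9% and 94.1% of the HSC counts in HSC replicate 3. The HSC counts of each of these genes thus lay almost wholly in 1 library. Other members of these lists had fewer counts over HSC than over MPP. Among them were the neutrophil list members Csf3r (4912 against 15580) and Cxcr2 (158 against 302), and Cpa3 of the mast cell and basophil list (389 against 597). Summed neutrophil markers ran between 9.196 and 335 CPM over HSC and between 86.02 and 174 CPM over MPP libraries, highest in HSC replicate 3, and summed mast cell and basophil markers, which include Gata2, ran between 436 and 689.7 CPM over HSC and between 266 and 305 CPM over MPP libraries. Outside HSC replicate 3 the neutrophil sum reached at most 67.81 CPM in HSC, below every MPP library. Of 7 tested mast cell and basophil markers Gata2 was higher (14.3%, beside 0.26% of all genes tested), 5 had a difference above 0 and the median was 0.77. The median of the 6 tested neutrophil markers was 1.09, with pairs from -1.77 to 5.87, of which 1 was above 0. The mast cell proteases Cma1, Tpsb2 and Tpsab1 and the T cell gene Cd8a had 0 counts in all 10 libraries, and the neutrophil gene Ly6g 0 over HSC and 1 over MPP. Of 8 dendritic cell markers Flt3 was lower (12.5%, beside 0.206% of all genes tested). The part of granulocyte RNA in the differences was not tested.

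The same contrast in cells without surface receptor shares no library with this one. Both contrasts come from the same fit, with a shared estimate of the spread of each gene, and from the same dates, so their calls are not fully independent. Between Lepr- HSC and Lepr- MPP 451 genes passed (2.73%), 201 higher (1.22%) and 250 lower (1.51%), and with the block 1238 (7.5%), 672 higher (4.07%) and 566 lower (3.43%). Of the 77 genes called in Lepr+ cells, 71 were called in Lepr- cells in the same direction, 92.2% of the first list and 15.7% of the second. All 77 had the same sign. For 53 of them the difference was smaller in Lepr+ cells, and the median sizes were 1.49 in Lepr+ and 1.74 in Lepr- cells. List medians in Lepr+ and Lepr- cells were -1.51 and -2.87 for lymphoid priming, 1.48 and 2.18 for platelets, 0.87 and 1.31 for mitosis, 0.67 and 0.74 for S phase, and -0.47 and -1.43 for granulocyte and monocyte priming. Of the lists described, 5 had medians of opposite sign in Lepr+ and Lepr- cells, with -2.98 and 1.13 for stromal, -1.22 and 0.23 for endothelial, -1.13 and 0.3 for monocyte and macrophage, 0.77 and -0.8 for mast cell and basophil markers, and 0.21 and -0.38 for erythroid genes. No test was made of these differences in list medians.

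The test of the difference between both contrasts called no gene in edgeR. Without the block 0 passed (smallest adjusted p = 0.793), with 529 at an unadjusted p under 0.05 (3.2%). With the block 0 passed (smallest adjusted p = 0.204), limma voom called 0 and DESeq2 called 19. Pf4 differed by 3.96 ± 0.63 in Lepr+ and 5.91 ± 0.69 in Lepr- cells (unadjusted p of the difference 0.0234), with 1857 ± 970.1 CPM in HSC against 31 ± 24.99 CPM in MPP in Lepr- cells. Dntt differed by -4.03 ± 1.05 and -7.85 ± 1.22 (unadjusted p 0.0124), with 0.592 ± 0.862 CPM in HSC against 152 ± 101 CPM in MPP in Lepr- cells. Neither held after adjustment.

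Of the 77 genes, 6 were not called in Lepr- cells, among them Tubb1 (2.33 ± 0.97 there, adjusted p = 0.3), Gata1 (1.61 ± 0.59, adjusted p = 0.21), Egr1 (0.96 ± 0.33, adjusted p = 0.178) and Spp1 (-0.32 ± 0.56, adjusted p = 0.922). Since the test of the difference did not call them (unadjusted p of 0.0285, 0.062, 0.176 and 0.0074), they are not shown to differ between Lepr+ and Lepr- cells. Gata1 had 184 ± 67.2 CPM in HSC against 60.4 ± 35.96 CPM in MPP among Lepr- cells, and 64.9 ± 40.4 CPM in HSC against 6.87 ± 5.602 CPM in MPP among Lepr+ cells.

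**Figure D4:**
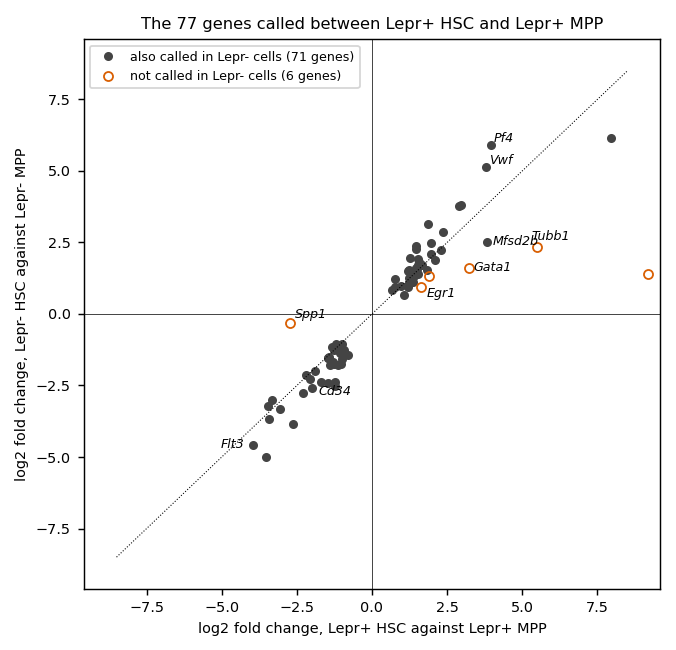
Log2 fold change of HSC against MPP in Lepr+ cells (x axis) and Lepr- cells (y axis) for the 77 genes called in Lepr+ cells, with filled circles for those also called in Lepr- cells, open circles for the others and a dotted line of equal change. All points have the same sign on both axes, and the 2 furthest right have 0 counts in all Lepr+ MPP libraries, so that their fitted values depend on the prior count.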

How the data were processed

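RNA of sorted mouse marrow cells was measured in 20 libraries, 5 in each of 4 groups. The deposited tables hold raw counts for 55573 genes. Their 5 closing lines for reads not assigned to a gene, 21.4% to 38.7% of each table, were dropped. Per the submitters' processing notes the build was GRCm38, and tools named there were STAR 2.7.1a, HTSeq 0.11.2, cutadapt 2.1, FastQC 0.11.8 and DESeq2. Per the labels' protocols libraries came from SMART-Seq v4 cDNA with Nextera XT, which does not mark strand, so overlapping and near-identical genes are uncertain. The counting mode is not given in the sources used here. GENCODE M21 named 55180 of the genes. Some genes are not reported here.

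The test was the quasi-likelihood F test of edgeR 4.0.16, two-sided, on all 20 libraries with group as its term, TMM scaling and filterByExpr (minimum count 10, total 15). Benjamini-Hochberg adjustment covered 16509 genes at 0.05. The fit was tested on simulated data without date effects or libraries that stand apart, with changes set only in genes at a mean of 5 CPM or more. There it recovered 14.9% of 2-fold, 77.6% of 4-fold and 89.4% of 8-fold changes. Of 124 simulated calls 3 were false, and these rates need not hold for the real libraries. A gene that did not pass is thus not shown to be unchanged. Samples are pools of mice, so p-values reflect the spread among these pools.

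Each replicate number carries 1 date in all groups, which pairs the libraries. Deviations of HSC and MPP with the same number correlated at 0.52, -0.13, 0.62, 0.27 and 0.16 for numbers 1 to 5. Alternatives were the block, DESeq2, limma voom, other scalings and filters, fewer libraries, single months and a marker covariate.

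Named genes were the 12 largest rises and 12 largest falls past the threshold (higher group at 5 CPM or more, 4 of 5 pairs alike, no predicted or clone names), up to 5 members per list by p (3 by level for other cell types), and Lepr, Leprot, Slamf1, Cd48, Ly6a, Kit, Procr, Hlf, Mecom, Flt3, Gata1, Mpo, Dntt, Pf4, Cdk6 and Mki67. Gins2, Plk1, Aurka, markers given as counts, and others marked in the text were named after their values were seen. The comparison, members and lists were chosen with earlier results of these data known, and lists are described by counts and medians.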

Additional observations from a re-analysis of the deposited data

Results flagged for a closer look

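In 7 of 68 sets of 5 replicate levels, 1 library lay further from the other 4 than Dixon's 95% critical value of 0.71 allows. Chance gives about 1 in 20 sets. These were Aurkb in HSC replicate 2 (77.1 CPM, others 105 to 116 CPM), Cd52 in MPP replicate 4 (264 CPM, others 16.9 to 39.9 CPM), Cebpa in HSC replicate 5 (3.89 CPM, others 0.668 to 1.54 CPM) and Dntt in HSC replicate 1 (2.73 CPM, others 0 to 0.315 CPM). They were also Dntt in MPP replicate 2 (20.8 CPM, others 7.09 to 9.75 CPM), Fhl1 in MPP replicate 5 (37.6 CPM, others 19.6 to 22.6 CPM) and Plac8 in HSC replicate 5 (152 CPM, others 39.6 to 52.8 CPM). For each of these genes HSC and MPP libraries did not overlap.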

How the results depend on the processing

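The 77 calls between Lepr+ HSC and Lepr+ MPP became 293 with the replicate block, 343 in DESeq2, 126 in limma voom, 4 on Lepr+ libraries alone and 4 there with the block, 2 with the covariate, 2 without the 4 libraries whose Lepr RNA lay in the Lepr- range (chosen after seeing the data), and 0 in June or 0 in July libraries by edgeR (822 and 839 at an unadjusted p under 0.05). Chance alone puts about 1 in 20 of the genes tested under an unadjusted p of 0.05, so counts of unadjusted p-values are not calls. Other scalings gave 75 and 60, other filters 67 and 94, and leaving out 1 library or replicate number 6 to 94, being 37, 6, 9, 31 and 53 without replicate numbers 1 to 5. Of 42 called genes described, 41 passed with the block, 32 in limma voom and 25 without the 3 libraries that stood apart. In any alternative run 0 changed direction, but they were called on the same libraries, so a change of direction was unlikely from the start. The 451 calls between Lepr- groups became 1238 with the block, 531 and, with the block, 1339 on Lepr- libraries alone, 844 in DESeq2, 768 without the 3 libraries, 81 in June, 0 in July (798 unadjusted) and 152 to 462 with libraries left out (246, 156 and 152 without numbers 1, 2 and 3). The difference between contrasts gave 19 in DESeq2 and 0 to 0 with libraries left out. Differences not called that changed sign were Cdk6 (-0.04), with 0.182 without the 3 libraries, 0.261 in July, 0.2 with the covariate and -0.183 to 0.158 with libraries left out; Mpo (0.569), with -0.412 on Lepr+ libraries with the block, -0.457 in limma voom, -0.075 without the 3 libraries, -1.894 in July and -0.388 to 0.899 with libraries left out; and Mki67 (0.78), with -0.21 on Lepr+ libraries with the block, -0.896 in July and -0.035 to 1.092 with libraries left out. Mecom (0.182) was -0.044 without the 3 libraries and -0.042 to 0.327 with libraries left out, Procr (0.079) -0.063 in June, -0.151 with the covariate and -0.095 to 0.206 with libraries left out, and with the covariate Leprot (0.267) was -0.107 and Col1a1 (-4.395) 0.482. The cause of these changes was not tested. The biological coefficient of variation was 0.74 in a fit on Lepr+ and 0.579 on Lepr- libraries.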

Other observations

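Cdk6, a kinase that sets how fast stem cells leave rest, ran between 127 and 329.8 CPM over HSC and between 161 and 298 CPM over MPP libraries (-0.04 ± 0.27, adjusted p = 0.997). Leprot, whose product acts on the traffic of the leptin receptor, ran between 89.3 and 132 CPM over HSC and between 72.9 and 112 CPM over MPP libraries (0.27 ± 0.19, adjusted p = 0.875). The imprinted RNA H19 was low and ran between 1.75 and 3.995 CPM over HSC and between 0 and 1.42 CPM over MPP libraries without overlap (2.94 ± 1.25, adjusted p = 0.559). Igkc, the kappa light chain of antibodies, had 0.356, 337, 193, 1.82 and 0.2103 CPM in HSC replicates and 2.58, 438, 328, 3549.7 and 4.95 CPM in MPP replicates (-3.02 ± 1.6, adjusted p = 0.734), and its level differed more among the MPP libraries than between the groups.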
